A study of Mus musculus with 8 samples.

Results

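The genes described here encode the proteins of the cytosolic ribosome, the particle that translates nuclear-encoded messenger RNA. They were taken by name from the gene count table as the rows called *Rps* or *Rpl* followed by a number with an optional a, x or l, together with *Rpsa*, *Rplp0*, *Rplp1* and *Rplp2*, without pseudogenes marked -ps and without the *Rps6k* kinases, and they had to reach 100 counts in every sample. Of the 55335 rows in the table, 83 had such a name and 75 reached the minimum, 30 from the small (40S) subunit and 45 from the large (60S) subunit. The rule itself uses names and a count minimum, not a difference between genotypes.

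The study asked how loss of LSD1, a histone demethylase encoded by *Kdm1a*, alters gene expression in T cells within a tumor. RNA was measured in antigen-experienced CD8+ T cells, those with CD44 and PD-1 on their surface (CD8+CD44+PD-1+ TILs, for tumor-infiltrating lymphocytes), sorted from subcutaneous MC38 tumors, a mouse colon carcinoma line, in C57BL/6 mice aged 6 to 10 weeks. The 4 WT samples came from littermate Lsd1f/f mice, which carry floxed alleles and no Cre, and the 4 KO samples from Cd4-Cre+Lsd1f/f mice, in which Cre acts in developing T cells, so that the allele had been deleted before the tumor was implanted and in CD4+ as well as CD8+ T cells. Each WT sample combined the TILs of 2 mice and each KO sample held those of 1 mouse, so genotype and pooling cannot be told apart. The sampling day is given as 18 in the protocol and as 14 in the design text, and 10000 to 20000 cells were lysed per sample. After their columns, S1, S2, S3 and S4 name the WT samples and S5, S6, S7 and S8 the KO samples, and values are listed in that order.

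Most ribosomal proteins are present in equal numbers per ribosome. In mammals, ribosomal protein messages are coordinated less by a single transcription factor than by a shared feature. Each begins at a C followed by a run of C and T bases, the 5′ terminal oligopyrimidine (TOP) motif. Through this motif mTOR and the RNA-binding protein LARP1 govern translation and stability. MYC raises the transcription of ribosomal protein and ribosome assembly genes. In CD8+ T cells, ribosome production climbs after antigen stimulation and falls as the cells come to rest.

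The annotated start sites of 7 of these genes differ in where a run of C and T lies. *Rpl39* had the lowest log2 fold change of the 75 and is shown for that. *Rps2* and *Rpl13a*, next to the ends of the range of fold changes, and *Rpl4*, next to the highest level per length, are shown in addition, as are *Rps6*, *Rps18* and *Rps27*, in which the run begins at or beside the annotated start. All but *Rpl39* were chosen after their values were seen. Each line gives 30 bases, 15 before and 15 from the start that RefSeq annotates on GRCm38.p6, read 5′ to 3′ on the gene's strand, with a run of 5 or more C and T that begins with C in capitals (the run that spans the annotated start or, where there is none, the longest).
Rpl39: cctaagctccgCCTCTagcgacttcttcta
Rps2: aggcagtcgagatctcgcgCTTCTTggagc
Rpl13a: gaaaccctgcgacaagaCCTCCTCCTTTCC
Rpl4: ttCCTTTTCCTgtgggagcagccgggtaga
Rps6: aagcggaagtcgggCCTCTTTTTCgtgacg
Rps18: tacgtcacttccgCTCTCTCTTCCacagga
Rps27: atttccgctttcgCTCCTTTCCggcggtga
The windows are chrX:37085208-37085237 (minus strand) for *Rpl39*, chr17:24720048-24720077 (plus) for *Rps2*, chr7:45128731-45128760 (minus) for *Rpl13a*, chr9:64173372-64173401 (plus) for *Rpl4*, chr4:86857353-86857382 (minus) for *Rps6*, chr17:33955651-33955680 (minus) for *Rps18* and chr3:90213634-90213663 (minus) for *Rps27*. The run spans the start in *Rpl39*, *Rps6*, *Rps18* and *Rps27*, ends upstream of it in *Rpl4* and begins downstream of it in *Rpl13a* and *Rps2*. Annotations differ: in GENCODE M21 the gene begins at 64173375 for *Rpl4*, within its marked run, and at 24718116 for *Rps2*, outside its window. An annotated start can lie some bases from the start these cells use, and the count table does not measure the start.

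Library totals ranged from 11657807 to 30295406 counts, and the deepest library was S8. *Kdm1a*, the targeted gene, was checked first: its level in CPM (counts per 1000000 counts of the TMM-scaled library) was 44.6, 47.3, 42.7 and 44.9 CPM in WT and 25.2, 30.6, 32.1 and 34.8 CPM in the KO samples. Every KO sample lay below every WT sample, with transcript remaining (log2 fold change -0.55, SE 0.14, adjusted p = 0.0163). Adjusted p-values here come from edgeR's quasi-likelihood test with Benjamini-Hochberg adjustment over the 15378 genes that passed its filter on low counts, all 75 ribosomal protein genes included. All 13 CD8 T cell markers were measured and summed to 4727 to 5427 CPM in WT and 4512 to 5426 CPM in KO. Within that sum, *Cd8b1*, a chain of the CD8 co-receptor, fell (log2 fold change -0.39, adjusted p = 0.0158), *Cd2* (0.80) and *Cd44* (0.86), receptors for adhesion, rose (adjusted p = 6.73e-05 and 0.000107), and 9 of the 13 lay below 0, with a median of -0.18.

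Ribosomal protein genes took a smaller share of the gene counts in KO TILs. The 75 genes held 1.725%, 2.025%, 1.874% and 2.25% of all counts in the WT samples, and 1.42%, 1.654%, 1.613% and 1.474% in the KO samples. The highest KO share lay below the lowest WT share. The mean was 1.97% ± 0.224 (SD, n = 4) in WT and 1.54% ± 0.111 (SD, n = 4) in KO, a ratio of 0.782, and the widest Wilson 95% interval of a single sample, that of S4, ran from 2.241% to 2.258%. Without the 10 genes with the most counts, which held 22.35% to 29.48% of a library, the ratio was 0.771. Both subunits showed it, the 40S genes with 0.739% to 0.974% of counts in WT against 0.611% to 0.704% in KO and the 60S genes with 0.986% to 1.276% in WT against 0.809% to 0.95% in KO. In bulk samples like these, fewer cells of a type and less RNA per cell cannot be told apart.

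**Figure D1:**
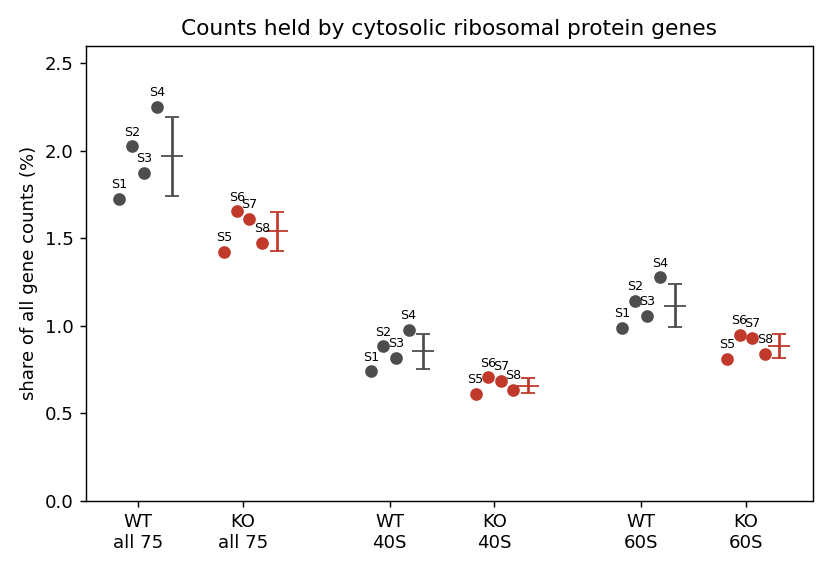
Share of all gene counts, in percent, held by the 75 cytosolic ribosomal protein genes and by their 40S and 60S members, 1 point per sample, with the mean and SD of the 4 samples beside the points. All 4 KO samples, at 1.42% to 1.654% for the 75 genes, sit below the 4 WT samples at 1.725% to 2.25%.

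All 75 genes had a log2 fold change below 0 in KO, where 51.4% of all genes tested did. At an adjusted p under 0.05, 30 of the 75 (40%) fell and 0 rose, beside 4.98% of all genes tested that fell and 6.31% that rose. The changes were small: the 30 that fell ranged from 0.658 to 0.79 of the WT level. Under the study's own thresholds, a fold change above 1.5 with an adjusted p under 0.01, none of the 75 was called, beside 1.99% of all genes called lower and 2.91% called higher. Of the 75, 1 gene, *Rpl39*, differed by more than 1.5-fold. At an unadjusted p under 0.05, 58 of the 75 were lower and 0 higher, and the share of all genes is not given here. DESeq2's Wald test called 39 lower and 0 higher at an adjusted p under 0.05, beside 996 and 1233 of all genes. Under the study's thresholds it called 1 lower, beside 1078 of all genes in either direction. The median log2 fold change of the 75 genes was -0.30, with quartiles of -0.39 and -0.24 and extremes of -0.60 (*Rpl39*) and -0.02 (*Rps29*), against a median of -0.01 over all genes tested. Every KO sample lay below every WT sample for 37 of the 75 genes, which 8.28% of all genes tested did. S2 and S4 were the WT samples with the highest ribosomal protein levels. Without S2, 11 of the 75 and 480 of all genes fell, and without S4, 11 and 529, against 766 of all genes with all samples. Without S5, S6 or S7, 19 of the 75 fell each time, beside 689, 621 and 555 of all genes. The median log2 fold change of the 75 stayed between -0.36 and -0.25 whichever sample was left out.

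**Figure D2:**
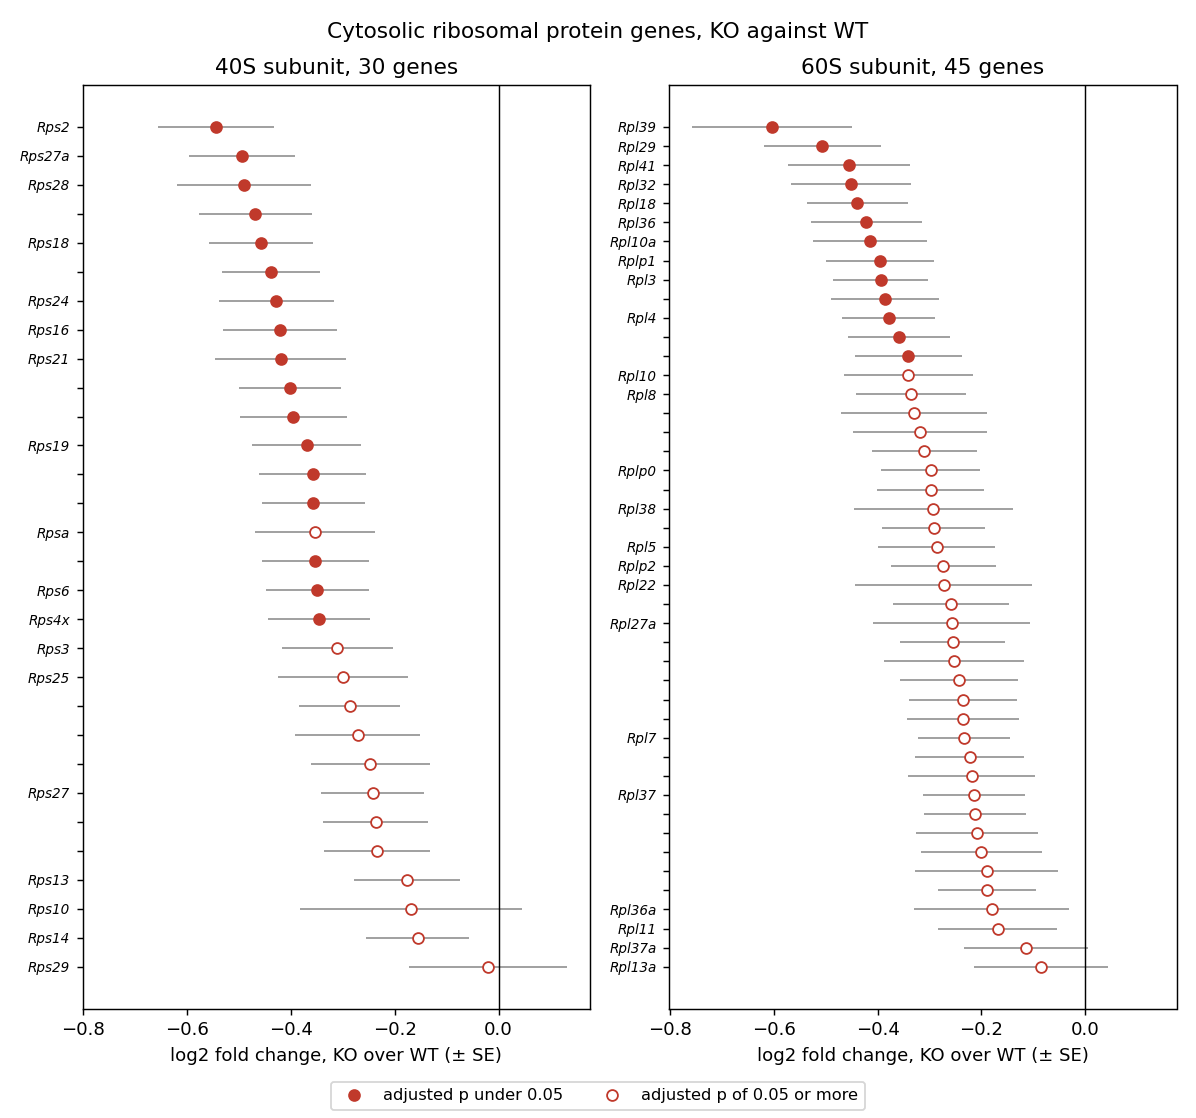
Log2 fold change, KO over WT, of each of the 30 genes of the 40S subunit and the 45 of the 60S subunit, with the SE as bars and filled points at an adjusted p under 0.05; genes described in the text are labeled. All points lie left of 0, from -0.60 for *Rpl39* to -0.02 for *Rps29*, and 17 points of the 40S panel and 13 of the 60S panel are filled.

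In the small subunit, which reads the message and hosts the pairing of codon and anticodon, 17 of 30 genes fell and the median log2 fold change was -0.35. *Rps2*, on chromosome 17 (GRCm38, 24718116 to 24721929, plus strand), encodes a protein at the channel through which mRNA enters, and its start site above has a short run of C and T downstream of the annotated start. It stood at 483, 589, 450.1 and 625 CPM in the WT samples and at 350, 370.5, 338 and 412 CPM in the KO samples. The groups did not overlap (log2 fold change -0.55, SE 0.11, adjusted p = 0.00394, the lowest of the 75). *Rps27a*, whose product is made as a fusion with ubiquitin and then split, was measured at 135, 158, 129 and 155 CPM in WT and 104, 104.2, 93.2 and 108 CPM in KO. Its KO samples were close to each other and all below WT (log2 fold change -0.49, SE 0.10, adjusted p = 0.00427). *Rps28*, whose product sits where mRNA leaves the subunit, was at 66.5, 86.6, 65.4 and 90.9 CPM in WT and 53.6, 54.2, 57.3 and 55.2 CPM in KO. Here S2 and S4 were well above S1 and S3, and the KO samples lay in a narrow band below all of them (log2 fold change -0.49, SE 0.13, adjusted p = 0.0194).

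Other 40S genes with large falls are known for contacts with the message or for a role in disease. *Rps18*, of the subunit's head, fell by 0.46 on the log2 scale (SE 0.10, adjusted p = 0.00598), from 374 to 482 CPM in WT to 293 to 340 CPM in KO. *Rps16*, whose tail reaches the tRNA in the P site, fell by 0.42 (adjusted p = 0.0194). *Rps24*, mutated in Diamond-Blackfan anemia, a failure of red cell production from impaired ribosome assembly, fell by 0.43 (adjusted p = 0.0179). *Rps19*, the gene most often mutated in that disease, fell less, by 0.37 (adjusted p = 0.0305). *Rps21*, needed to mature the RNA of the small subunit, fell by 0.42 (adjusted p = 0.04), with overlapping groups of 217 to 318 CPM in WT and 170 to 217 CPM in KO.

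*Rps6*, the substrate by which mTOR and S6 kinase activity is commonly read at the protein level, was at 150, 154, 133 and 160 CPM in WT and 124, 113, 108 and 123 CPM in KO. The groups did not overlap and the transcript fell by 0.35 on the log2 scale (SE 0.10, adjusted p = 0.0302). *Rps4x*, an X-linked 40S gene, fell by a similar amount (log2 fold change -0.35, adjusted p = 0.0299). *Rpsa*, also known as a laminin receptor, had groups that did not overlap and a log2 fold change of -0.35, but its adjusted p was 0.0589. *Rps3*, a protein of the mRNA entry site, gave -0.31 (adjusted p = 0.0738) and *Rps25*, required for initiation at some viral internal entry sites, gave -0.30 (adjusted p = 0.144).

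The smallest differences of the 40S genes were those of *Rps29*, *Rps14*, *Rps10* and *Rps13*, and *Rps29* was the smallest of all 75. *Rps29*, a small zinc-binding protein of the head, was at 31.7, 41.4, 41.5 and 45.4 CPM in WT and 39.1, 44.4, 42.2 and 32.3 CPM in KO. The groups were interleaved, and the estimate of -0.02 (SE 0.15, adjusted p = 0.961) turned positive in some of the alternatives described under the processing. *Rps14*, whose loss underlies the anemia of 5q- syndrome, gave -0.16 (SE 0.10, adjusted p = 0.371). *Rps10*, a head protein that is ubiquitinated when ribosomes collide, had the lowest level, 12.6, 11.4, 19.0 and 13.2 CPM in WT and 13.1, 12.1, 12.9 and 11.8 CPM in KO. One WT sample, S3, lay above the other 7, which overlapped (log2 fold change -0.17, SE 0.21, adjusted p = 0.7). Of the exon bases of *Rps10*, 20.55% are shared on the same strand with a readthrough gene.

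In the large subunit, which forms the peptide bond and through whose tunnel the new chain leaves, 13 of 45 genes fell and the median log2 fold change was -0.29. *Rpl39*, on the X chromosome (37082520 to 37085402, minus strand), encodes a very small protein in the wall of that tunnel. It was at 91.1, 118, 76.1 and 125 CPM in the WT samples and at 57.6, 69.8, 81.6 and 61.1 CPM in the KO samples. Only S7 among the KO samples reached into the WT range, above S3 (log2 fold change -0.60, SE 0.15, adjusted p = 0.0167, exact permutation p = 0.0571). *Rpl29*, a 60S protein found only in eukaryotes, was at 111, 122, 121 and 145 CPM in WT and 81.5, 78.7, 95.4 and 95.8 CPM in KO, with no overlap (log2 fold change -0.51, SE 0.11, adjusted p = 0.00687). *Rpl41*, the shortest ribosomal protein, which bridges the subunits, fell by 0.46 on the log2 scale (adjusted p = 0.0176). *Rpl18*, *Rpl32* and *Rpl36*, core proteins of the subunit, fell by 0.44 (adjusted p = 0.0065), 0.45 (adjusted p = 0.0173) and 0.42 (adjusted p = 0.0157).

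Other 60S proteins act at the catalytic center, the tunnel or the tRNA exit site. *Rpl3*, which approaches the peptidyl transferase center, was at 377 to 439 CPM in WT and 290 to 325 CPM in KO, and fell by 0.39 (SE 0.09, adjusted p = 0.00934). *Rpl4*, whose loop lines the tunnel, was at 1182, 1365, 1217 and 1413 CPM in WT and 924, 1042, 1052 and 963 CPM in KO. No KO sample reached the WT range (log2 fold change -0.38, SE 0.09, adjusted p = 0.0103). *Rpl10a*, of the L1 stalk beside the exit site for tRNA, fell by 0.41 (adjusted p = 0.0209). *Rpl8*, next to the catalytic center, gave -0.34 (adjusted p = 0.0525) with no overlap between groups, and *Rpl10*, among the last proteins joined to the subunit, gave -0.34 with overlapping groups (adjusted p = 0.0927).

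The stalk, built of *Rplp0*, *Rplp1* and *Rplp2*, calls elongation factors to the ribosome. *Rplp1* was at 387, 480, 445 and 547 CPM in WT and 334, 368, 352 and 359 CPM in KO, and fell by 0.40 on the log2 scale (SE 0.10, adjusted p = 0.0194). *Rplp0*, often taken as a reference gene in qPCR, was at 876, 1032, 903 and 1107 CPM in WT and 733, 839, 784 and 831 CPM in KO. Its groups did not overlap either, but its adjusted p was 0.0535 (log2 fold change -0.30, SE 0.10). *Rplp2* gave -0.27 (adjusted p = 0.0976), again with every KO sample below every WT sample.

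*Rpl5* and *Rpl11*, which carry the 5S RNA into the subunit and, when free, bind the p53 ligase MDM2, had estimates of -0.29 (adjusted p = 0.12) and -0.17 (adjusted p = 0.407). *Rpl22*, a 60S protein on which the development of alpha-beta T cells depends, had the largest SD within groups, 0.31 on the log2 scale. It was at 54.9, 81.1, 56.8 and 67.8 CPM in WT and 49.96, 40.8, 73.4 and 51.9 CPM in KO, with S7 inside the WT range (log2 fold change -0.27, SE 0.17, adjusted p = 0.36). *Rpl27a*, of the 60S core, varied nearly as much (SD 0.29). *Rpl7*, *Rpl3* and *Rpl37* varied least, with SDs of 0.09 to 0.10, and of these *Rpl7* gave a log2 fold change of -0.23 (adjusted p = 0.103) and *Rpl37* one of -0.21 (adjusted p = 0.188). *Rpl38*, linked to the translation of *Hox* messages, gave -0.29 with an SE of 0.15 (adjusted p = 0.259).

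At the upper end of the 60S genes stood *Rpl13a*, *Rpl37a*, *Rpl11* and *Rpl36a*. *Rpl13a*, which also represses inflammatory messages when it leaves the ribosome, was at 58.6, 62.7, 60.6 and 71.0 CPM in WT and 53.2, 70.7, 51.4 and 63.0 CPM in KO. S5 and S7 lay below all WT samples and S6 and S8 within their range (log2 fold change -0.08, SE 0.13, adjusted p = 0.761), and 35.38% of its exon bases are shared on the same strand with other annotated genes, the largest such share among the 75. *Rpl37a*, a zinc-binding 60S protein, gave -0.11 (adjusted p = 0.631), and *Rpl36a*, which lies near the exit site for tRNA, gave -0.18 (adjusted p = 0.513). These estimates have SEs of 0.11 to 0.15, and the median of the 75 genes lay within 2 SEs of each of them.

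In every sample, most of the 75 genes lay on the same side of their group mean, by the smallest margin in S8. Of the 75, 68 lay above the WT mean in S2 and 68 in S4, whereas 70 lay below it in S1 and 64 in S3. Among the KO samples, 65 lay below the KO mean in S5, and S5 was the lowest of the group for 45. Above the KO mean lay 56 in S7, 46 in S6 and 42 in S8. The mean log2 CPM over the 75 genes was 7.46, 7.70, 7.48 and 7.74 in the WT samples and 7.19, 7.31, 7.36 and 7.30 in the KO samples. The distance between the highest KO sample (S7) and the lowest WT sample (S1) on that mean was thus smaller than the distance between the WT samples S1 and S4.

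**Figure D3:**
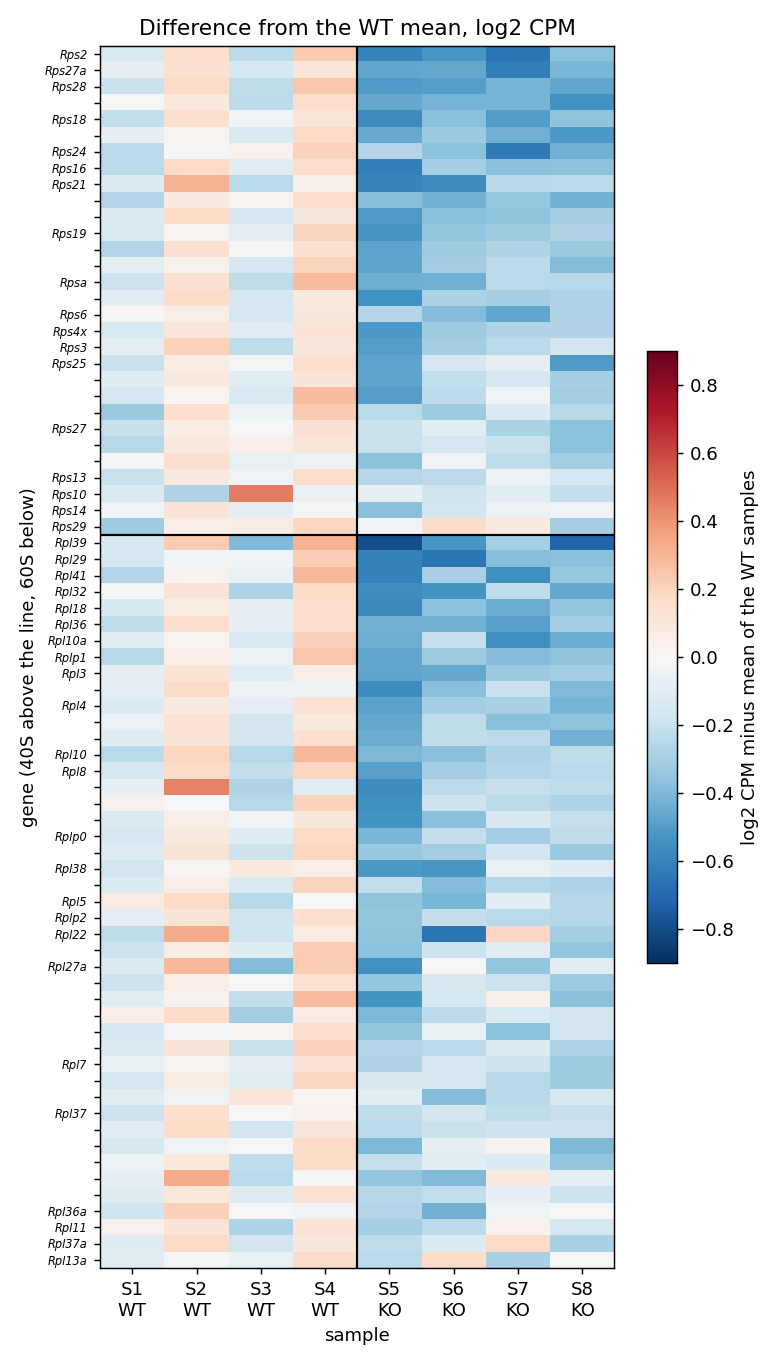
Difference of each of the 75 genes (rows, 40S above the line, 60S below, each ordered by log2 fold change, those described in the text labeled) from its WT mean in each sample (columns), in log2 CPM, with blue for lower and red for higher. S2 and S4 are red for 68 genes each, S1 and S3 pale blue for 70 and 64, and the KO columns are blue apart from a few cells, such as those of *Rps29* and *Rpl13a*.

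Levels per exon length were compared as CPM per kilobase of exon (RPKM), computed here with the exon lengths of GENCODE M21. In WT the 75 genes ran from 6.07 RPKM (*Rps10*) to 931 RPKM (*Rplp1*), with a median of 95.2 RPKM, and in KO the median was 78.0 RPKM. Among the 5 highest levels per length were those of *Rplp1*, *Rpl4*, *Rplp0* and *Rpl8*, at 537 to 931 RPKM in WT, and the lowest, ranked by the mean over all 8 samples, those of *Rps10*, *Rpl22*, *Rpl36a*, *Rps19* and *Rpl5*, at 6.07 to 31.3 RPKM in WT. The lengths include exons of rare isoforms, which lowers the values of genes with many isoforms. Of the 25 genes with the highest level per length, 13 fell, with a median log2 fold change of -0.35, and of the 25 with the lowest, 6 fell, with a median of -0.26. SEs ranged from 0.09 to 0.21 and were at most 0.15 for genes with 1000 or more counts in every sample.

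**Figure D4:**
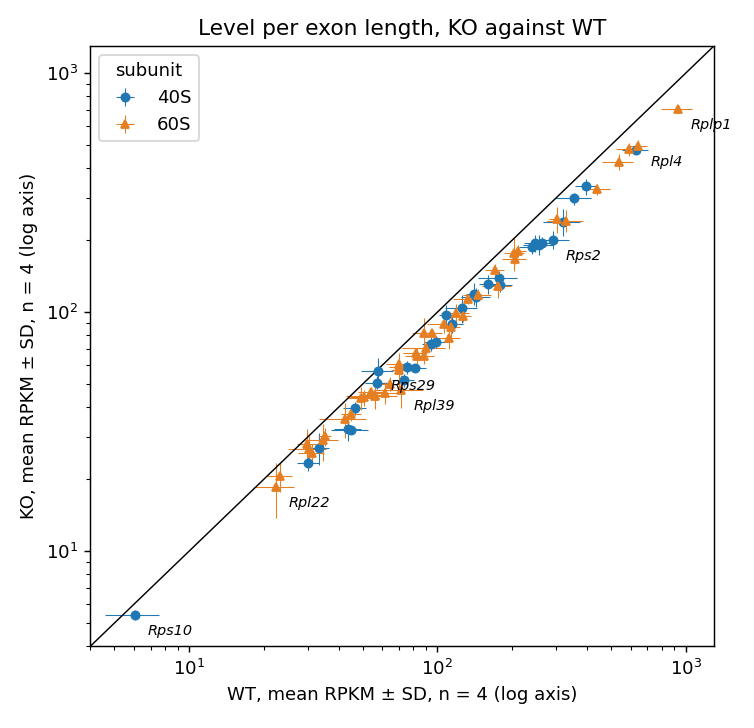
Level per exon length in KO (vertical axis) against WT (horizontal axis), mean RPKM with the SD of 4 samples per group on log axes, circles for 40S and triangles for 60S genes, with a line of equal levels. The points run from *Rps10* at 6.07 RPKM in WT to *Rplp1* at 931 RPKM, and all lie below the line, *Rps29* closest to it.

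The genes are spread over 19 chromosomes, with 14 on chromosome 7, and most are short, with a median exon length of 1830 bases. All genes tested were split by exon length into 5 bins of near-equal size. In the bin of the shortest genes the median log2 fold change was -0.08, and in its 24 ribosomal protein genes it was -0.31. In the next bin these medians were -0.06 and -0.30 (35 genes), and in the one after it -0.05 and -0.31 (12 genes). Among the 7811 other genes whose mean log2 CPM was at least that of the lowest ribosomal protein gene, a set that reaches below the level of most of the 75, the median was 0.00 and 5.351% fell. Of the 75, 29 hold at least 1 small nucleolar RNA gene within their span, mostly in introns, and 13 of them fell (median -0.34), while 17 of the 46 without one fell (median -0.29).

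RefSeq start sites were matched by symbol for 55 of the 75 genes, *Rplp1* and *Rps29* not among them. A C at the annotated start followed by 4 bases that are each C or T was present in 13 of them (23.6%) and in 3.01% of 27025 genes. Allowing the run anywhere within 15 bases on either side of the start gave 37 of 55 (67.3%), against 40.3% of all genes. The 13 genes with the run at the start had a median log2 fold change of -0.27 and 3 of them fell, *Rps6* and *Rps18* among them, and the 42 others had a median of -0.30 and 16 fell. With the run anywhere in the window, 15 of 37 fell, against 4 of the 18 without it, and both medians were -0.29. Within the 300 bases from 250 before to 50 after the start, CCGGAAG on either strand, the core bound by GABPA and other ETS factors, was found in 23 of 55 (41.8%) against 9.93% of genes. CACGTG, the E-box bound by MYC and MAX, which reads the same on both strands, was found in 6 (10.9%) against 8.09%, and AAGATGGC on either strand, a YY1 motif, in 5 (9.09%) against 3.19%. The medians with and without CCGGAAG were both -0.29, and those with and without CACGTG were -0.24 and -0.30. A match of letters is not a bound site.

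Of the 8 rows with a matching name that missed the minimum, *Rpl32l*, *Rpl6l* and *Rps27l* came closest. *Rpl32l* (75 to 193 counts) and *Rpl6l* (66 to 200 counts) are annotated as processed pseudogenes, and *Rps27l*, a p53-responsive paralog of *Rps27*, had 36 to 206 counts. Just inside were *Rps10* (150 to 336 counts), *Rpl38* and *Rpl36a*. *Rpl24*, a 60S protein gene, also missed the minimum, with 36 to 149 counts, and 46.99% of its exon bases are shared with another annotated gene. The others were *Rps4l*, *Rpl10l*, *Rpl39l* and *Rpl3l*, each with 0 counts in at least 1 sample, the last of which is the form of skeletal muscle and heart.

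Some ribosomal protein genes have a close second copy, and the balance within 4 such pairs was compared by the log2 ratio of counts. *Rps27l* ran at 1.77%, 2.29%, 1.78% and 3.13% of *Rps27* in the WT samples and at 1.12%, 1.49%, 0.886% and 2.27% in the KO samples. The difference in log2 ratio, -0.68, did not pass the exact permutation test (two-sided p = 0.114, 0.456 adjusted over the 4 pairs; the smallest p that 4 against 4 samples allow is 0.0286). *Rpl22l1*, the paralog that can replace *Rpl22*, ran at 82.4% to 97% of *Rpl22* in WT and 65% to 114% in KO (difference in log2 ratio -0.10, exact permutation p = 0.629). *Rpl36al* over *Rpl36a* differed by 0.26 (exact permutation p = 0.629) and *Rpl7l1* over *Rpl7* by -0.05 (exact permutation p = 0.83). Reads that match both copies may have been split or dropped in counting. The table also has 306 rows named as pseudogenes of these genes, of which 217 have counts, and together they hold 15.6% as many counts as the 75 genes and over 10% as many for 27 of them. For 7 genes the pseudogene rows hold more counts than the gene itself: *Rps10* (467% of its counts), *Rpl38* (233%), *Rpl36a* (203%), *Rpl14* (182%), *Rps6* (164%), *Rpl10a* (131%) and *Rpl19* (102%). *Rps6* and *Rpl10a* are among the genes that fell. With these counts added to their genes, 35 of the 75 fell, beside 771 of all genes, and the median log2 fold change of the 75 was -0.33.

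A further list held ribosomal protein genes that the naming rule missed, together with paralogs such as *Rps27l* and *Rps4l* that it took but that stayed under the count minimum. Of its 11 genes tested, 9 had a log2 fold change below 0 and 2 (18.18%) fell, beside 51.4% and 4.98% of all genes tested. *Rps3a1*, a 40S protein gene, was at 277, 337, 288 and 357 CPM in WT and 207, 254, 242 and 238 CPM in KO (log2 fold change -0.42, SE 0.11, adjusted p = 0.0153), and *Rpl37rt*, a transcribed retrocopy of *Rpl37*, fell by 0.46 (adjusted p = 0.0112). *Rack1*, a scaffold on the 40S head, gave -0.18 (adjusted p = 0.277) and *Fau*, which encodes a 40S protein fused to a ubiquitin-like domain, gave -0.20 (adjusted p = 0.249).

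Other genes of protein synthesis were read beside them from lists of names, with the same test over all genes. Of all genes tested, 4.98% fell and 6.31% rose. Among 30 genes with TOP messages, 26 had a log2 fold change below 0, 4 (13.3%) fell and 1 rose, and the median was -0.21. Those that fell included *Eef1g*, an elongation factor subunit (log2 fold change -0.41, adjusted p = 0.0381), *Npm1*, a nucleolar chaperone (-0.41, adjusted p = 0.0249) and *Eif4b*, a helper of the initiation helicase (-0.36, adjusted p = 0.0365). *Vim*, an intermediate filament gene, was the one that rose (0.75, adjusted p = 0.000259). Among 52 initiation and elongation factors, 14 of which are also on the first list, 9 (17.3%) fell and 0 rose, with a median of -0.19. *Eif5a*, which keeps ribosomes from stalling, fell by 0.64 (adjusted p = 0.00227), *Eif3i*, a subunit of the initiation factor eIF3, by 0.57 (adjusted p = 0.00832), *Eif3j2*, a copy of a gene for a factor loosely attached to eIF3, by 0.75 (adjusted p = 0.0124), and *Eef1e1*, of the aminoacyl-tRNA synthetase complex, by 0.85 (adjusted p = 0.0113).

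Of 60 ribosome assembly genes, 52 had a log2 fold change below 0 with a median of -0.26, but 4 (6.67%) fell and 0 rose, a share near the 4.98% of all genes tested that fell. *Dkc1*, the pseudouridine synthase of ribosomal RNA, was at 33.7, 32.0, 36.4 and 40.9 CPM in WT and 9.91, 16.9, 20.6 and 22.0 CPM in KO. Its KO samples lay well below all WT samples (log2 fold change -1.04, SE 0.21, adjusted p = 0.00373). *Nhp2*, its partner in the same particle, fell by 0.96 (adjusted p = 0.00473), *Ebna1bp2*, of early 60S particles, by 0.57 (adjusted p = 0.0423), and *Nolc1*, a nucleolar phosphoprotein, by 0.45 (adjusted p = 0.0198). Of 77 genes for proteins of the mitochondrial ribosome, which translates the mitochondrial genome, 59 lay below 0. Of these genes 1 (1.3%), *Mrpl36*, fell (log2 fold change -0.82, adjusted p = 0.0163), a share under that of all genes tested. The median was -0.18, and it ran from -0.22 (without S3) to -0.12 (without S4 or without S5) when a sample was left out.

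**Figure D5:**
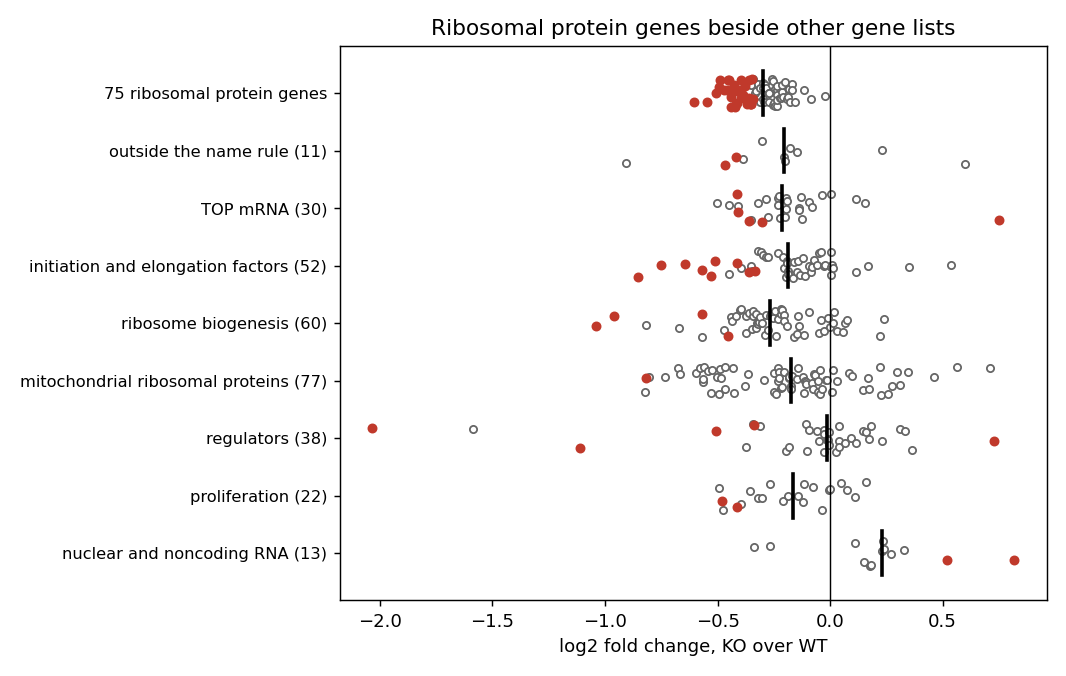
Log2 fold changes, KO over WT, of the 75 ribosomal protein genes and of 8 other lists (number tested in parentheses), 1 point per gene, filled at an adjusted p under 0.05, with a bar at each median. The medians are -0.30 for the ribosomal protein genes, between -0.26 and -0.16 for the other protein synthesis and proliferation lists, and -0.01 for the regulators. The median is 0.23 for the list named nuclear and noncoding RNA, which also takes in mitochondrial mRNAs.

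Among 38 regulators of ribosomal protein genes and of translation, 4 (10.53%) fell and 1 rose, beside 4.98% and 6.31% of all genes tested. Their median was -0.01, which was above 0 without S1, S3, S5 or S8. *Myc*, the transcription factor that drives ribosome production, was at 69.9, 72.2, 59.5 and 86.8 CPM in WT and 25.4, 42.5, 23.6 and 41.4 CPM in KO. The groups stood apart (log2 fold change -1.11, SE 0.19, adjusted p = 0.00084). *Eif4ebp1*, the mTOR target that holds back the cap-binding protein, was at 12.8, 7.08, 6.85 and 12.1 CPM in WT and 1.12, 3.31, 1.92 and 3.06 CPM in KO (log2 fold change -2.04, SE 0.39, adjusted p = 0.00249). *Mxi1*, an antagonist of MYC, fell by 0.51 (adjusted p = 0.018), and *Eif2ak4*, a kinase that slows initiation when amino acids are scarce, rose by 0.73 (adjusted p = 0.0262). *Mtor* itself gave -0.03 (adjusted p = 0.929) and *Larp1* gave -0.18 (adjusted p = 0.24). *Myc* was lower in every KO sample than in any WT sample, as was the ribosomal protein share. Whether they are linked was not tested.

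Some markers of other cells and 2 nuclear or noncoding RNAs differed between the genotypes too. Of 18 myeloid markers tested, all 18 had a log2 fold change below 0, 14 fell and the median was -2.61, with a summed level of 503 to 1541 CPM in WT and 242 to 355 CPM in KO. *C1qa*, *C1qb*, *C1qc* and *Ms4a7*, genes of macrophages, had the largest falls, from -4.27 to -3.61 on the log2 scale. By sample, the myeloid sum was 503, 609, 1541 and 863 CPM in WT and 341, 355, 242 and 243 CPM in KO. The ribosomal protein shares were 1.725%, 2.025%, 1.874% and 2.25% in WT and 1.42%, 1.654%, 1.613% and 1.474% in KO. Every KO sample lay below every WT sample on both. Without S3, 32 of the 75 ribosomal protein genes fell, beside 586 of all genes. S1, S2 and S4 still exceeded every KO sample in the myeloid sum, so the genotypes still differed in it. Of 4 CD4 T cell markers, 3 rose, *Cd40lg*, *Cd4* and *Zbtb7b*, with a summed level of 40.1 to 57.0 CPM in WT and 121 to 155 CPM in KO. Of the other marker lists, at most 2 genes each could be tested. The endothelial, NK and erythroid lists had 1 gene tested each, which does not establish that such cells were present. *Pecam1*, of the endothelial list, rose, at 20.3 to 26.3 CPM in WT and 56.2 to 77.03 CPM in KO. *Klrb1c*, of the NK list, rose too, at 0 to 1.32 CPM and 2.15 to 5.51 CPM. *Hbb-bs*, of the erythroid list, fell, at 1.69 to 6.53 CPM and 0 to 0.919 CPM. The neutrophil, B cell, epithelial and fibroblast lists had no call. Of 22 proliferation genes, 2 fell, *Mcm4* (-0.48, adjusted p = 0.0495) and *Mcm2* (-0.41, adjusted p = 0.0476), both of the replicative helicase, a share of 9.09% beside 4.98% of all genes. The median was -0.16, with -0.05 without S4 and -0.27 without S1. A list of nuclear and noncoding RNAs, which also takes in mitochondrial mRNAs, had 13 genes tested, of which 2 rose and 0 fell. Those that rose were *Rn7sk*, which restrains transcription elongation (0.52, adjusted p = 0.00389), and *Firre*, a nuclear RNA (0.82, adjusted p = 0.0162). Of the 13, 2 had a log2 fold change below 0, and the median was 0.23. Of all genes tested, 6.31% rose. The summed level of the 13 overlapped between the groups, at 194200 to 271000 CPM in WT and 187800 to 280300 CPM in KO. The part of these differences in the ribosomal protein values was not tested.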

How the data were processed

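Per the paper's methods and the labels, the authors depleted ribosomal RNA, sequenced paired reads, aligned them with STAR to GRCm38 (mm10), counted them per GENCODE gene with featureCounts and deposited raw counts in one table. Strand and multi-mapping settings are not given in the sources used here. The genotype of each column was read from the sample key of the study's principal component plot. Here edgeR 4.0.16 in R 4.3.3 was used with filterByExpr, TMM factors and the quasi-likelihood test, without covariates and without the authors' GC correction. An SE is the size of the log2 fold change divided by the root of its F statistic. The fit was tested on simulated data. CPM use TMM-scaled library sizes, and 3 counts equal 0.099 to 0.257 CPM. Intervals and floors cover counting error only. Ratios of paralogs, with 0.5 added to counts, were compared by an exact permutation test over 70 arrangements. Annotation was GENCODE M21, which matched 55154 of 55335 gene IDs.

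Members and lists were chosen with earlier results of these data known. Named genes are the 15 called members with the largest fold change, the extremes of fold change, level per length and SD, those beside the count minimum, members with known roles, and up to 4 called genes per list. *Mtor*, *Larp1*, *Rack1*, *Fau*, *Rpl24*, *Rpl14*, *Rpl19*, *Rps13*, *Rps4l*, *Cd2*, *Cd44*, *Cd8b1*, *Pecam1*, *Klrb1c* and *Hbb-bs* were added after their values were seen. Samples of a group are labelled replicates from separate mice or pools of mice. Alternatives were other scalings, filters, DESeq2 1.42.0, limma voom (limma 3.58.1), GC and length offsets (mgcv 1.9.3), a fit of protein-coding genes alone and fits without each sample. Some members that the rule names are not reported here by name.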

Additional observations from a re-analysis of the deposited data

Results flagged for a closer look

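Of 158 groups of 4 samples that were examined for a sample far from the others, 1 was flagged, where chance flags about 1 group in 20. The mean log2 CPM of the initiation and elongation factors in KO was 6.13 in S5 and 6.26 to 6.29 in the other 3 KO samples, and the gap of S5 to its nearest neighbor was 0.842 of the whole range. S5 also had the lowest mean level of the 75 ribosomal protein genes. None of the named ribosomal protein genes was flagged.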

How the results depend on the processing

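No paired analysis was possible because the columns of the count table do not carry the replicate numbers of the labels. Under the 13 alternatives that kept all samples, 24 to 39 of the 75 ribosomal protein genes fell at an adjusted p under 0.05, against 30, and 0 rose in any. The lower number came with a GC content offset and the higher with DESeq2, where 687 and 996 of all genes fell. Leaving out each sample gave 11 to 37. Under the stricter thresholds (fold change above 1.5, adjusted p under 0.01) the number was 1 without a filter on low counts and 1 with DESeq2, against 0, and 0 to 2 when a sample was left out. Of all genes, 766 fell with all samples and 480 (without S2) to 785 (without S8) when a sample was left out, and 1173 passed the stricter thresholds without a filter, against 753. The median log2 fold change of the 75 genes was -0.33 to -0.26 under those 13 alternatives and -0.36 to -0.25 when a sample was left out. It was -0.31 with a count minimum of 10 (79 genes), -0.32 with one of 1000 (60 genes) and -0.30 with wider names (82 genes). *Rps29* turned positive with a GC content offset (0.0315) and an exon length offset (0.0535), and ranged from -0.1152 (without S1) to 0.0689 (without S8) when a sample was left out, being above 0 without S4 too (0.0448). *Rps10* turned positive without S3 (0.0089). The cause was not tested. In all 21 alternative fits, 10 genes fell (among them *Rps2*, *Rps18*, *Rps27a*, *Rpl3*, *Rpl4*, *Rpl18* and *Rpl29*), and 30 fell in none. Of 924 values for 44 named ribosomal protein genes, 839 kept direction and side of the threshold, 48 lost the call and 32 gained it. The widest SE of the 75 was that of *Rps10*, 0.21 at 150 to 336 counts, and whether depth or the spread of its samples set it was not tested.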
